A study of Homo sapiens with 28 samples.

Results

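The transcripts described here are those of the human mitochondrial genome: every gene whose symbol starts with MT- in the 28 gene tables of the series, which gave 37 of the 57820 genes listed. They were 13 messenger RNAs (mRNAs), 2 ribosomal RNAs (rRNAs) and 22 transfer RNAs (tRNAs), and the choice used the symbol alone, not the measured values. RNA-seq was done in SEM cells, a human B-cell acute lymphoblastic leukemia line with an MLL-AF4 fusion, to ask how gene expression depends on CTCF, a zinc finger protein that binds nuclear DNA and organizes chromatin loops. The deposited libraries fall into a 24 h set of 12 and a 6 h set of 16.

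In the 24 h set, CTCF-AID2 cells carried endogenous CTCF fused to an auxin-inducible degron and mClover3, a doxycycline-inducible OsTIR1 and a constitutive OsTIR1(F74G), the F-box protein that removes tagged proteins when the auxin analog 5-Ph-IAA is added. They were left without auxin (4 libraries) or given 5-Ph-IAA for 24 h (4 libraries), at 1 µM by the library titles and at 10 µM by the treatment protocol. WT cells of this set were SEM cells without the degron, left without auxin (2 libraries) or given auxin (IAA) for 24 h (2 libraries). The methods of the study add doxycycline to this IAA treatment, at 500 µM IAA and 1 µg/ml doxycycline, so effects of IAA and doxycycline cannot be told apart here. In the 6 h set, CTCF-AID2 cells also held a doxycycline-inducible HA-tagged CTCF, either full length (the WT line) or lacking zinc finger 1 (dZF1), zinc finger 10 (dZF10) or the RNA binding region (dRBR), each without auxin or with auxin for 6 h (2 libraries per line and treatment). By the methods, these lines were given 5-Ph-IAA at 10 µM for 6 h, with doxycycline at 1 µg/ml to switch on the HA-tagged CTCF. The methods give the doxycycline for longer than the auxin, so 6 h is the time of auxin alone. The labels name the auxin alone, as IAA, and below IAA in the 6 h set is that label. Doxycycline also induces the OsTIR1 of these cells. Effects of auxin, doxycycline and the induced proteins therefore cannot be told apart in this set either. Nothing in the labels ties the libraries of one group to cultures grown apart, and p-values therefore speak only to the spread among these libraries, which may be technical. Because the degron acts on protein, CTCF RNA does not check the treatment: it was higher in treated CTCF-AID2 cells (log2 fold change 0.77), and nothing below rests on it.

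The mitochondrial genome is a small circular DNA in the organelle, transcribed by its own polymerase, POLRMT, from promoters near one another into long transcripts of both strands that cover most of the circle. tRNAs lie between most of the rRNAs and mRNAs, and cutting them out releases the flanking RNAs, which mostly receive short poly(A) tails. The mRNAs encode core subunits of complexes I (MT-ND1 to MT-ND6 and MT-ND4L), III (MT-CYB), IV (MT-CO1, MT-CO2 and MT-CO3) and V (MT-ATP6 and MT-ATP8) of the oxidative phosphorylation chain, whose other subunits are encoded in the nucleus, and the rRNAs form the mitochondrial ribosome.

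The arrangement of these genes bears on what a read can be assigned to. On GRCh37, the build used for the deposited files, the mitochondrial chromosome in the reference used here has 16569 bases. Of the 37 genes, 9 were annotated on the minus strand, MT-ND6 and 8 tRNAs, and the strand setting used for counting is not stated in the sources used here, so reads of MT-ND6 and of the opposite strand cannot be told apart. The tRNA for valine, MT-TV, sits between the rRNAs with no base on either side, MT-RNR1 lying at chrM:648-1601 and MT-RNR2 at chrM:1671-3229 on the plus strand. It is printed here from the GRCh37 reference, plus strand, chrM:1592-1680, with the tRNA in capitals and 10 bases of each rRNA in lower case.
MT-TV: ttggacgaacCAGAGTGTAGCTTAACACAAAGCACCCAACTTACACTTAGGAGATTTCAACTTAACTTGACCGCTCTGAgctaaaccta

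MT-ATP8 and MT-ATP6 share 46 bases, and MT-ND4L and MT-ND4 share 7, in each case inside one RNA that carries both reading frames. The shared bases are shown in capitals (plus strand, chrM:8517-8582 and chrM:10750-10776), because a read that falls in them must be divided between 2 genes.
MT-ATP8 and MT-ATP6: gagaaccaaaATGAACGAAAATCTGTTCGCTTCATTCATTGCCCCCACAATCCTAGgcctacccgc
MT-ND4L and MT-ND4: acctactccaATGCTAAaactaatcgt

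Parts of the mitochondrial genome are also present as copies in nuclear chromosomes. The files list 188 such copies under their own symbols, of which 86 had a count in at least 1 library. The copies with the most counts were MTATP6P1 (chr1:569076-569756), MTND2P28 (chr1:565020-566063) and MTND1P23 (chr1:564442-564813). MTND2P28 was identical to MT-ND2 at 98.37% of 1042 aligned bases, and 246 of the 943 windows of 100 bases (26.09%) held no difference at all. MTATP6P1 was 98.53% identical to MT-ATP6, with 69 of 582 such windows free of differences, and MTND1P23 99.15% identical to MT-ND1 over 352 bases, with 94 of 253 windows. The 60 bases below, at chrM:4899-4958 and chr1:565449-565508 (both plus strand), are the first stretch of that length in MT-ND2 with the most differences from its copy, and the 4 differing bases are in capitals.
MT-ND2: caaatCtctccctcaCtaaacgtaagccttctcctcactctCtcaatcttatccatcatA
MTND2P28: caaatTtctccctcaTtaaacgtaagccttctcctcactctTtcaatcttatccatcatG

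Library totals ranged from 25833955 to 60730749 estimated counts. The 7 B-lineage markers read here (such as CD79A, EBF1 and PAX5) were detected throughout, with a summed level of 846 to 1348 counts per 1000000 counts of the library (CPM), against 14.1 to 27.3 CPM for 6 T and NK cell markers, 13.7 to 64.4 CPM for 6 myeloid markers, 32.7 to 107 CPM for 5 stromal markers and at most 0.0183 CPM for 5 erythroid markers. The WT libraries of the 24 h set stood apart in how their counts were made: 7.10 to 7.52% of their detected genes had a count that was not a whole number, against 16.8 to 19.5% in the other 24 libraries. The processing behind this difference is not stated, and in the 24 h set it cannot be told apart from the cell line. The sum of the myeloid markers moved with treatment. Their sum was 33.3 to 35.9 CPM in untreated and 24.8 to 28.2 CPM in treated CTCF-AID2 cells, and 63.2 to 64.4 CPM in untreated and 45.0 to 49.0 CPM in treated WT cells. At 6 h it was 28.7 to 41.2 CPM in untreated and 13.7 to 19.6 CPM in treated libraries. Of the 6 myeloid markers, 1 was at 0 in every library, and 2 had enough counts to be tested at 24 h. In CTCF-AID2 cells 1 of these 2 was called lower (log2 fold change -0.97) and the other was not called (0.04). There 58.7% of all genes were called, 29.5% of them all being called lower. In WT cells both markers were called lower (-0.67 and -0.35), where 18.9% of all genes were called and 9.57% were called lower. B-lineage markers also shifted, from 999 to 1055 CPM untreated to 1157 to 1236 CPM treated in CTCF-AID2 cells. Of the 7, 5 rose there, where 29.2% of all genes rose. In WT cells they went from 916 to 919 CPM untreated to 846 to 869 CPM treated. Of the 7, 2 rose and 1 fell there, beside 9.35% and 9.57% of all genes. At 6 h the sum of the B-lineage markers, like that of the stromal markers, was lower in both treated than in both untreated libraries of every line but dZF1. In each group of the 6 h set, 3 of the 5 stromal markers were at 0. At 24 h, 1 of the 5 stromal and 1 of the 6 T and NK cell markers had enough counts to be tested, so these sums rest on few genes. The part of these shifts in the mitochondrial values was not tested.

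The mitochondrial genome took a small share of all counts, with a median of 0.413% over the 28 libraries. In the 6 h set the share ran from 0.273% to 0.944% (dZF10 with IAA, replicate 1, and WT line with IAA, replicate 2). In CTCF-AID2 cells of the 24 h set it was 0.349 to 0.377% without auxin and 0.350 to 0.436% with 5-Ph-IAA. WT cells of that set gave 0.368% and 0.333% without auxin and 0.257% and 0.222% with IAA, so that both treated libraries lay below both untreated ones. In such bulk RNA, fewer cells with a transcript and less of it per cell cannot be told apart. The widest 95% Wilson interval of any library's share was ±0.00320 percentage points, a figure that covers counting error only. The total was thus known far more closely within a library than between libraries of one group.

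Levels were compared between genes per length, as transcripts per 1000000 transcripts (TPM). MT-CO3, a subunit of cytochrome c oxidase, had the highest median over the 28 libraries at 684 TPM, followed by MT-CO1 at 442 TPM and MT-CO2 at 250 TPM, the other mitochondrially encoded subunits of that enzyme. MT-ND3, of complex I, had a median of 166 TPM. The remaining complex I subunits lay well below it, from MT-ND4L at 71.7 TPM through MT-ND4 at 37.005, MT-ND1 at 32.2, MT-ND2 at 26.5 and MT-ND6 at 23.9 to MT-ND5 at 19.01 TPM, the lowest of the 13 mRNAs. The ATP synthase subunits MT-ATP8 and MT-ATP6 had medians of 60.8 and 53.2 TPM, and MT-CYB, cytochrome b of complex III, 30.6 TPM. Neighbours in this order often overlapped: MT-ND1 ranged over libraries from 18.2 to 63.7 TPM and MT-CYB from 13.9 to 65.3 TPM. MT-CO3, in contrast, never fell below 359 TPM, which was above every value of 10 of the other 12 mRNAs, all but MT-CO1 and MT-CO2.

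The 3 subunits of cytochrome c oxidase together held 79.8 to 86.5% of the mRNA counts of the mitochondrial genome in every library. The paired genes of shared transcripts did not have equal values. MT-ND4L stood at 1.64 to 2.45 times the TPM of MT-ND4, and MT-ATP8 at 0.833 to 1.33 times that of MT-ATP6 in the 24 libraries outside the WT cells of the 24 h set but at 2.00 to 2.47 times in those 4 libraries. How counts in shared bases were divided was not tested.

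**Figure D1:**
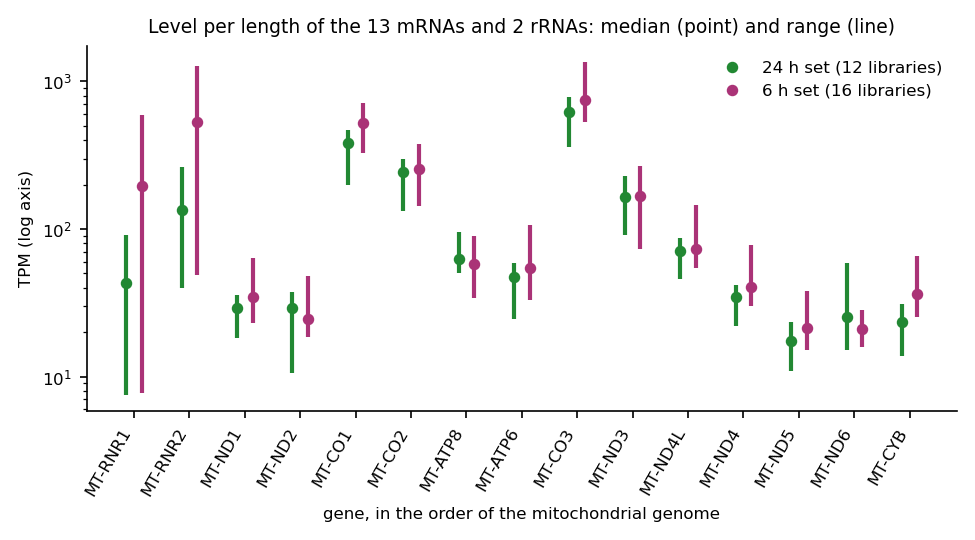
Level per length of the 13 mRNAs and 2 rRNAs of the mitochondrial genome, in genome order, as TPM on a log axis. Points are medians and lines the lowest to highest library of the 24 h set (12 libraries) and the 6 h set (16 libraries); MT-CO3 has the highest median of the mRNAs at 684 TPM over all libraries, and the lines of MT-RNR1 and MT-RNR2 are the longest.

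The rRNAs had the widest ranges. MT-RNR2, the large-subunit 16S rRNA, ranged over the 28 libraries from 39.7 to 1267 TPM, and MT-RNR1, the small-subunit 12S rRNA, from 7.56 to 589 TPM. Among libraries of the same group, the SD of log2 CPM was 0.33 for MT-RNR2 and 0.80 for MT-RNR1 in the 24 h set, where the median over all genes tested was 0.07. In the 6 h set it was 1.53 for MT-RNR2 and 2.10 for MT-RNR1, against a median of 0.12 over all genes. These spreads placed the rRNAs above 95.3% of genes tested in one set and 99.2% in the other. MT-ND6 was the most variable mRNA at 24 h (SD 0.45) and MT-ND3 at 6 h (SD 0.51), whereas MT-CO3 had the smallest SD of the 13 mRNAs in each set, at 0.05 and 0.17.

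By the methods of the study the RNA was depleted of ribosomal RNA before library preparation, whereas the library labels name a 3′ end kit. Depletion acts on rRNA directly, and these data do not say how much of the mitochondrial rRNA it removed in each library. As a second reading of library preparation, 11 nuclear RNAs that mostly lack poly(A) tails, such as the signal recognition particle RNA RN7SL1, the telomerase RNA TERC and the small Cajal body RNA SCARNA2, were followed in the same libraries. Their sum ranged over all libraries from 1.02e+05 to 1.59e+05 CPM. Which kit made which library was not tested. In untreated CTCF-AID2 against WT cells, 6 of the 11 were called, all higher (SCARNA2 by 1.74, TERC by 1.52 and RN7SL1 by 0.59 on the log2 scale), where 35.2% of all genes were higher and 35.4% lower. With treatment, 2 rose and 3 fell in CTCF-AID2 cells at 24 h, where 29.2% of all genes rose and 29.5% fell. In WT cells 2 rose and 0 fell, where 9.35% of all genes rose and 9.57% fell. At 6 h, 4 of the 11 fell in dZF1 cells with IAA, where 16.4% of all genes fell. In the average over lines 1 fell, where 26.4% of all genes fell. In the WT line, dZF10 and dRBR cells 0 were called, where 10.5 to 18.1% of all genes were called in either direction. The part of rRNA depletion and of library preparation in the mitochondrial values was not tested.

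The tRNAs were close to absent from the tables. Of the 22, 7 (MT-TI, MT-TW, MT-TD, MT-TR, MT-TG, MT-TK and MT-TL2) had no count in any of the 28 libraries, and the other 15 had 1148 counts in all. MT-TV, MT-TM, MT-TE, MT-TC and MT-TS2 held 77.79% of these, and no tRNA reached more than 44 counts in a library. A count of 0 allows a level of up to 3 counts, which was 0.0494 to 0.116 CPM in these libraries. These genes are 59 to 75 bases long, and their TPM was listed at 0 in all 28 libraries. Of the tRNAs, MT-TV alone passed the filter on low counts, in the 6 h set only, so 15 of the 37 genes were tested at 24 h and 16 at 6 h.

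In the 2 libraries lowest in rRNA, MT-TV counts were unlike each other. In dZF10 cells with IAA, replicate 1, MT-TV had 38 counts although MT-RNR1 and MT-RNR2 were at or near their lowest there (15.2 and 169 CPM). In dZF1 cells with IAA, replicate 2, where the rRNAs were similarly low (15.04 and 192 CPM), MT-TV had 0 counts, and it had 33 in replicate 1. At these counts no comparison of MT-TV passed the test.

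In the 24 h set, 12 of the 13 mitochondrial mRNAs of CTCF-AID2 cells given 5-Ph-IAA were within 0.2 log2 units of the untreated level. The exceptions among the 15 genes tested were the rRNAs and MT-ND6. MT-RNR2 read 461, 431, 464 and 446 CPM without auxin and 848, 650, 758 and 457 CPM with 5-Ph-IAA. Treated replicates 1 to 3 lay above all 4 untreated libraries, and replicate 4 lay among them. MT-RNR2 rose by a log2 fold change of 0.53 (SE 0.18, fold 1.45, n = 4 and 4, limma-voom adjusted p = 0.0183).

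MT-ND4L, a small membrane subunit of complex I, read 24.1, 23.1, 20.4 and 24.6 CPM without auxin and 18.8, 18.7, 23.2 and 21.7 CPM with 5-Ph-IAA. The groups overlapped, with 2 treated libraries below all untreated ones. MT-ND4, which lies in the same RNA, read 104, 109, 90.1 and 119 CPM without auxin and 101, 101, 122 and 105 CPM with 5-Ph-IAA. MT-ND4L stood at 2.07 to 2.26 times the TPM of MT-ND4 without auxin and 1.93 to 2.04 times with 5-Ph-IAA. The part of the division of counts between them was not tested. MT-ND4L fell by 0.19 on the log2 scale (SE 0.07, limma-voom adjusted p = 0.0377). These were the 2 of 15 genes called (1 higher and 1 lower), where 58.7% of the 13973 genes tested were called in the same comparison. The second rule, which adds a minimum size of 1 on the log2 scale, called 0 of the 15, beside 3.56% of all genes, and limma-voom gave 3 at an unadjusted p under 0.05, beside 62.9% of all genes.

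Neither call stood on every library. Without treated replicate 1 the log2 fold change of MT-RNR2 was 0.40 (limma-voom adjusted p = 0.071) and without treated replicate 3 it was 0.47 (adjusted p = 0.053), and without replicate 1 no mitochondrial gene was called. MT-ND4L was also not called when treated replicate 1 or 2, or untreated replicate 1, 2 or 4, was left out, with log2 fold changes from -0.19 to -0.15. With all libraries kept, MT-ND4L lost the call with library sizes alone, without a filter on low counts and with a replicate block. The limma-voom adjusted p was then 0.0614, 0.0721 and 0.073. MT-RNR1 read 81.7 to 85.8 CPM in the untreated libraries and 77.4 to 164 CPM in the treated ones, with overlap, and its estimate was close to that of MT-RNR2 with a larger SE (log2 fold change 0.52, SE 0.38, adjusted p = 0.261). An analysis of the 8 CTCF-AID2 libraries alone called MT-RNR1 (SE 0.17, limma-voom adjusted p = 0.0193) along with MT-RNR2 and MT-ND4L, and 59.1% of all genes it tested.

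MT-CO1 read 1281, 1274, 1280 and 1335 CPM without auxin and 1497, 1393, 1452 and 1257 CPM with 5-Ph-IAA. Treated replicates 1 to 3 were again above every untreated library and replicate 4 below. The log2 fold change was 0.09 (SE 0.04, limma-voom adjusted p = 0.0559), which missed the threshold here and passed it with DESeq2. MT-CO2 and MT-CO3 had log2 fold changes of -0.0011 and 0.02, with 95% confidence intervals from -0.10 to 0.09 and from -0.04 to 0.09. The median log2 fold change of the 13 mRNAs was -0.04, beside -0.0024 over all genes tested, and 9 of the 13 estimates were below 0. Of the 13 mRNAs, 0 had treated libraries all above or all below the untreated ones, arrangements seen in 27.9% and 24.2% of all genes tested.

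MT-ND6, the one mRNA gene annotated on the minus strand, read 19.3, 17.1, 26.0 and 48.0 CPM without auxin and 20.9, 19.4, 20.8 and 12.8 CPM with 5-Ph-IAA. The high value in untreated replicate 4 stood alone, and the other libraries of both groups overlapped. Its log2 fold change of -0.50 (SE 0.25) had an adjusted p of 0.104 in limma-voom. The estimate was -0.20 without untreated replicate 4 and -0.70 without untreated replicate 2, where it was called (limma-voom adjusted p = 0.0258).

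In WT cells of the 24 h set, which lack the degron, IAA treatment went with lower levels of the cytochrome c oxidase mRNAs, MT-ND3 and MT-RNR2. MT-CO1 read 1232 and 1211 CPM without auxin and 875 and 825 CPM with IAA. MT-CO3 read 1076 and 1017 CPM without auxin and 697 and 646 CPM with IAA. MT-CO2 read 317 and 302 CPM without auxin and 203 and 199 CPM with IAA. For each of these genes both treated libraries lay well below both untreated ones.

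MT-CO1 fell by 0.51 on the log2 scale (SE 0.05, fold 0.701, limma-voom adjusted p = 1.97e-05), MT-CO2 by 0.61 (SE 0.06, fold 0.654, adjusted p = 1.30e-05) and MT-CO3 by 0.63 (SE 0.04, fold 0.647, adjusted p = 3.24e-07). MT-ND3, a complex I subunit, read 70.4 and 66.2 CPM without auxin and 43.1 and 42.4 CPM with IAA, again without overlap. MT-ND3 fell by 0.66 (SE 0.09, fold 0.632, adjusted p = 0.000268). These 4 mRNAs kept their calls in each of the 14 alternatives run for this comparison, including those without 1 library.

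MT-RNR2 read 521 and 343 CPM without auxin and 285 and 166 CPM with IAA. It fell by 0.95 on the log2 scale (SE 0.26, limma-voom adjusted p = 0.0195), the largest estimate among the 15 genes but the least certain of the calls. Without untreated replicate 1 the estimate was -0.67 (adjusted p = 0.19), and without treated replicate 2 it was -0.58 (adjusted p = 0.23). MT-RNR1 read 61.1 and 39.0 CPM without auxin and 137 and 17.6 CPM with IAA, so that the treated libraries lay on either side of the untreated ones (log2 fold change -0.02, SE 0.62). In the treated library with 137 CPM, MT-RNR2 stood at only 1.14 times the TPM of MT-RNR1, against 4.67 to 5.25 times in the other 3 WT libraries of the set.

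In all, 5 of the 15 genes were called in WT cells, each lower, where 18.9% of the 13973 genes tested were called in either direction and 9.57% were called lower. All 15 estimates were below 0, with a median of -0.25 over the 13 mRNAs beside 0.01 over all genes tested. Genes released from shared long transcripts can move together, so these are not 15 separate results. In CPM, 10 of the 13 mRNAs had both treated libraries below both untreated ones, an arrangement seen in 28% of all genes tested. The 8 mRNAs of complexes I, III and V that were tested and not called besides MT-ND6 ranged from MT-CYB at -0.32 (95% interval -0.57 to -0.07, adjusted p = 0.0698) to MT-ND2 at -0.05 (95% interval -0.30 to 0.20). An analysis of these 4 libraries alone called 9 of the 15 genes and 19% of all genes it tested. IAA and doxycycline were given together here by the methods, and no library of the set had either alone.

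The effect of treatment differed between the lines. The interaction, the change in CTCF-AID2 cells minus that in WT cells, was called for 5 genes, all with a higher value in CTCF-AID2 cells, where 40.2% of all genes tested were called and 19.3% had a higher value. It was 1.48 for MT-RNR2 (SE 0.31, limma-voom adjusted p = 0.00176), 0.77 for MT-ND3 (SE 0.11, adjusted p = 0.000107), 0.65 for MT-CO3 (SE 0.05, adjusted p = 5.08e-07), 0.61 for MT-CO2 (SE 0.08, adjusted p = 2.55e-05) and 0.60 for MT-CO1 (SE 0.07, adjusted p = 8.22e-06). MT-RNR2 alone passed the second rule as well, which called 4.87% of all genes. The other 10 genes tested had interactions from -0.35 (MT-ND6, SE 0.44) to 0.54 (MT-RNR1, SE 0.73). The lines received different agents at different doses and carried different transgenes, so the interaction compares the treatments as given and cannot be tied to CTCF.

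**Figure D2:**
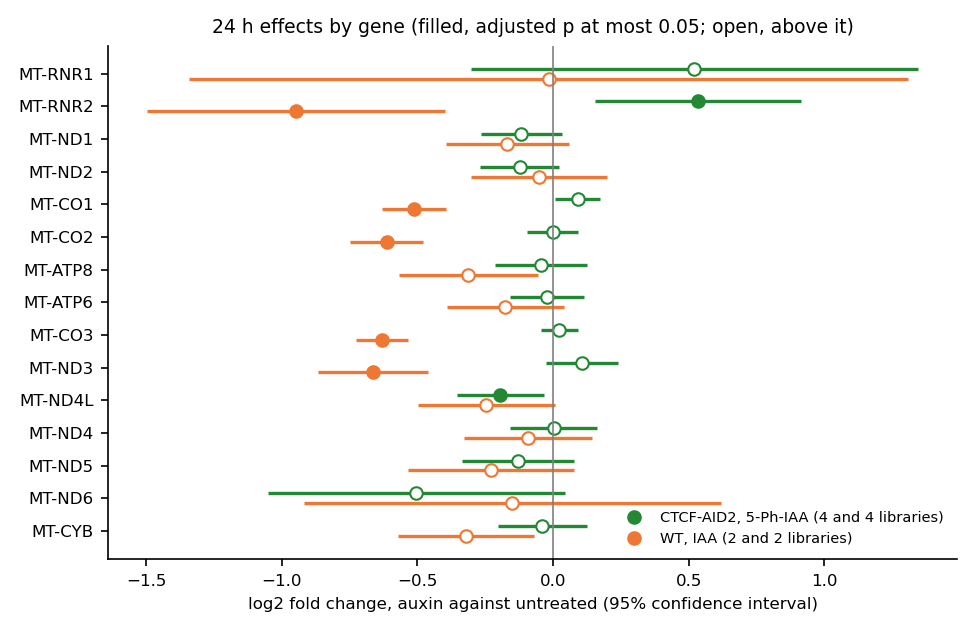
Log2 fold change of each of the 15 tested genes after 24 h of treatment against untreated cells, with 95% confidence intervals, for CTCF-AID2 cells (green, 5-Ph-IAA, 4 and 4 libraries) and WT cells (orange, IAA, 2 and 2 libraries). Filled points passed the adjusted p of 0.05; all 15 estimates in WT cells lie below 0, and MT-RNR2 is called in opposite directions in the 2 lines.

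Without auxin, CTCF-AID2 and WT cells of the 24 h set differed at 7 of the 15 genes, 6 higher and 1 lower in CTCF-AID2 cells, where 70.6% of all genes tested were called (35.2% higher and 35.4% lower). MT-ND2 had the largest difference. It read 68.6, 69.0, 58.3 and 76.7 CPM in CTCF-AID2 cells and 32.9 and 27.1 CPM in WT cells, a log2 difference of 1.20 (SE 0.09, fold 2.30, limma-voom adjusted p = 8.18e-08). The groups did not overlap, and MT-ND2 was the one gene of the 15 called by both rules, which called 9.75% of all genes.

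The nuclear copy of MT-ND2 moved the other way. MTND2P28 read 2.55, 2.63, 2.77 and 3.05 CPM in untreated CTCF-AID2 cells and 21.6 and 18.2 CPM in untreated WT cells, a log2 difference of -2.84 (SE 0.09, limma-voom adjusted p = 5.61e-12). In the 4 WT libraries of the set the copy held 36.9 to 40.2% of the counts of the pair, and in the other 24 libraries 3.002 to 5.81%. MT-ND2 and MTND2P28 together read 71.1, 71.6, 61.1 and 79.7 CPM in CTCF-AID2 cells and 54.5 and 45.3 CPM in WT cells. When the counts of the copies were added to their mitochondrial genes, an alternative chosen after seeing the data, the log2 difference of MT-ND2 became 0.52 (SE 0.09, limma-voom adjusted p = 8.93e-05), a smaller difference that was still called.

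MTND1P23 followed the same division, with 2.74 to 3.81% of the counts of its pair in the WT libraries of the 24 h set and at most 0.189% elsewhere. Its weight was small, and the difference of MT-ND1 went from 0.31 (SE 0.09, limma-voom adjusted p = 0.00638) to 0.26 (adjusted p = 0.0157) with the copy added. MTATP6P1 did not follow it, with 8.50 to 11.8% of its pair in all 28 libraries. MT-ATP6 read 61.3, 63.7, 55.4 and 68.9 CPM in untreated CTCF-AID2 cells and 43.6 and 40.1 CPM in untreated WT cells, without overlap, a log2 difference of 0.59 (SE 0.08, adjusted p = 2.10e-05) that was 0.57 with the copy.

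MT-CO3 was the one gene of the 7 that was lower in CTCF-AID2 cells, at 907, 892, 874 and 934 CPM against 1076 and 1017 CPM in WT cells, a log2 difference of -0.20 (SE 0.04, limma-voom adjusted p = 0.000333). MT-ND4L, MT-CYB and MT-ND4 were higher in CTCF-AID2 cells by 0.35, 0.31 and 0.27 on the log2 scale (SE 0.10, 0.10 and 0.09). Without WT replicate 2, MT-ND1, MT-ND4L, MT-ND4 and MT-CYB were no longer called and 3 of the 7 genes kept the call (MT-ND2, MT-ATP6 and MT-CO3). With treated libraries included, MT-ND2, MT-ATP6, MT-CO1 and MT-CYB read higher in all 8 CTCF-AID2 libraries than in all 4 WT libraries, as did 25% of all genes tested. All of these differences coincide with the difference in whole-number counts between the libraries, and line and processing cannot be told apart.

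**Figure D3:**
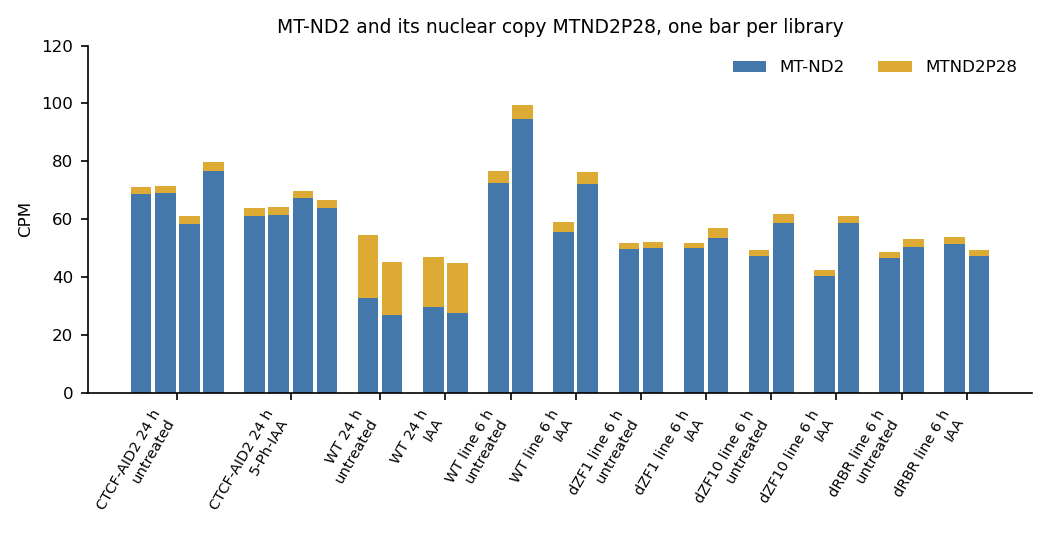
CPM of MT-ND2 (blue) and of its nuclear copy MTND2P28 (yellow), stacked from 0, with one bar for each of the 28 libraries. MTND2P28 takes 36.9 to 40.2% of the pair in the 4 WT libraries of the 24 h set and at most 5.81% in the other 24.

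In the 6 h set no mitochondrial gene was called after auxin in any line. With limma-voom, 0 of 16 genes were called in the WT line, where 13.7% of the 13902 genes tested were, 0 in dZF1 cells (33.6% of all genes), 0 in dZF10 cells (18.1%) and 0 in dRBR cells (10.5%). At an unadjusted p under 0.05 there were 2 in the WT line (MT-ND4 and MT-ND5), 1 in dZF1 cells (MT-TV) and 0 in the others, beside 27.8%, 45.5%, 32.3% and 26.6% of all genes in the 4 lines. edgeR called none in any line, and DESeq2 called 1, MT-ND5 in the WT line, where it called 14.6% of all genes.

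MT-ND5, a large membrane subunit of complex I, read 118 and 142 CPM without auxin and 87.7 and 107 CPM with IAA in the WT line, so both treated libraries lay below both untreated ones. The log2 fold change was -0.41 (SE 0.15, limma-voom adjusted p = 0.0922). MT-ND4 read 175 and 215 CPM without auxin and 122 and 163 CPM with IAA, also without overlap, with a log2 fold change of -0.46 (SE 0.19, adjusted p = 0.137). In the WT line all 13 mRNA estimates were below 0, from -0.50 for MT-ATP6 to -0.05 for MT-ND3, with a median of -0.36. The medians were -0.07 in dZF1, -0.19 in dZF10 and -0.06 in dRBR cells, beside -0.0070 to -0.0020 over all genes tested in the 4 lines.

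Averaged over the 4 lines, the comparison with the most libraries (8 and 8), auxin again called 0 of 16 mitochondrial genes, where 51.5% of all genes were called. There were 3 genes at an unadjusted p under 0.05, beside 57.5% of all genes: MT-ND5 (log2 fold change -0.19, SE 0.08, limma-voom adjusted p = 0.051), MT-ND4 (-0.23, SE 0.09, adjusted p = 0.0639) and MT-CO1 (-0.20, SE 0.09, adjusted p = 0.0681). edgeR called none, and DESeq2 called these 3 and 50.2% of all genes. All 13 mRNA estimates were below 0, from -0.25 to -0.08, with a median of -0.15 beside -0.0094 over all genes.

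The effects were not shown to differ among the lines, since the F test of their differences called 0 of 16 genes, with 0 at an unadjusted p under 0.05, where 0.144% of all genes were called and 10.5% had such a p. edgeR and DESeq2 also called none of the 16. The smallest adjusted p was 0.566, for MT-ND6.

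**Figure D4:**
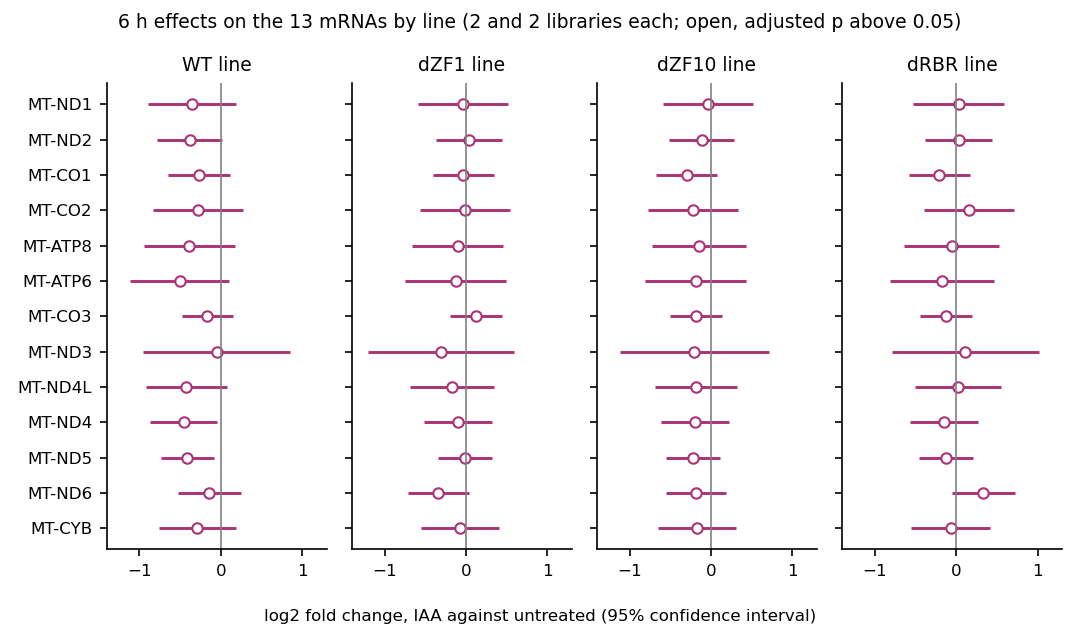
Log2 fold change of the 13 mRNAs after 6 h of IAA against untreated cells in each line of the 6 h set (2 and 2 libraries per line), with 95% confidence intervals. No point passed the adjusted p of 0.05; the 13 estimates of the WT line all lie below 0, with a median of -0.36.

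Single libraries carried much of the 6 h pattern, above all for the rRNAs. MT-RNR2 read 1832 and 2583 CPM without auxin and 672 and 3907 CPM with IAA in the WT line. In dZF1 cells it read 1644 and 2524 CPM without auxin and 2727 and 192 CPM with IAA. In dZF10 cells it read 642 and 2005 CPM without auxin and 169 and 1935 CPM with IAA. The treated libraries of each of these lines thus lay far apart, on both sides of the untreated ones in the WT line and dZF1 cells, and one below and one between them in dZF10 cells.

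In dRBR cells MT-RNR2 read 1761 and 1785 CPM without auxin and 1693 and 913 CPM with IAA. MT-RNR1 had its extremes in the same 3 libraries as MT-RNR2, with its lowest values of 15.04 and 15.2 CPM in dZF1 replicate 2 and dZF10 replicate 1 with IAA and its highest of 1019 CPM in the WT line with IAA, replicate 2. The share of counts from the abundant nuclear 7SL and 7SK RNAs was 8.95% and 8.16% in the 2 libraries lowest in rRNA, inside the range of 7.89 to 11.3% of the set. Averaged over lines, the log2 fold changes were -0.86 for MT-RNR2 (SE 0.63, limma-voom adjusted p = 0.278) and -1.22 for MT-RNR1 (SE 0.85, adjusted p = 0.246).

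Without these 2 libraries, an alternative chosen after seeing the data, the averages were 0.06 for MT-RNR2 and 0.03 for MT-RNR1 (limma-voom adjusted p = 0.905 and 0.961). Both libraries were treated ones picked for their low rRNA, so leaving them out had to raise the rRNA estimates. No conclusion on the rRNAs is drawn from that rise. The average for the mRNAs also came closer to 0, with a median of -0.06 and 10 of 13 estimates below 0. In dZF10 cells 3 of 13 mRNA estimates then lay below 0, with a median of 0.08, whereas in the WT line, from which no library was removed, all 13 stayed below 0 with a median of -0.35. In that line MT-ND5 was then called. dZF10 replicate 1 with IAA held the lowest CPM of the set for 12 of the 13 mRNAs.

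The 4 lines could also be compared with each other, over treated and untreated libraries together. Against the WT line, 12 of 13 mRNA estimates were below 0 in dZF1 cells (all but MT-CO3) and all 13 in dZF10 and dRBR cells, with medians of -0.43 for dZF1, -0.51 for dZF10 and -0.55 for dRBR cells. limma-voom called 0 of 16 genes in each comparison, where 0.0935%, 0.0575% and 0% of all genes were called, with 7, 10 and 9 of the 16 at an unadjusted p under 0.05, beside 11%, 5.42% and 6.88% of all genes. These comparisons share the 4 libraries of the WT line, so they are not independent. Genes released from shared long transcripts can also move together within a library. The counts out of 16 are therefore not counts of separate results. edgeR called none, and DESeq2 called 4, 4 and 5 of the 16, with MT-ND2, MT-ND4 and MT-ND5 in each, where DESeq2 called 0.856%, 0.216% and 0.23% of all genes.

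MT-ND5 in the WT line, as given above, read 118 and 142 CPM untreated and 87.7 and 107 CPM treated, and over the 12 libraries of the other lines it had a lowest value of 62.8, a median of 78.9 and a highest value of 92.0 CPM. The untreated WT libraries were above all 12, and the treated ones were above 11 and all 12 of them. The log2 difference from the WT line was -0.43 for dZF1 (SE 0.11, limma-voom adjusted p = 0.165), -0.51 for dZF10 (SE 0.11, adjusted p = 0.228) and -0.59 for dRBR cells (SE 0.11, adjusted p = 0.238).

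Much of this difference lay in the untreated WT libraries. Both of them were above all 12 libraries of the other lines for 10 of the 13 mRNAs, all but MT-CO3, MT-ND3 and MT-ND6, an arrangement chosen after seeing the values and found in 3.55% of all genes tested. WT replicate 2 without auxin was the highest library of the set for 11 of the 13 mRNAs. With only 2 untreated libraries for this line, a difference between lines and a difference between these libraries cannot be told apart.

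**Figure D5:**
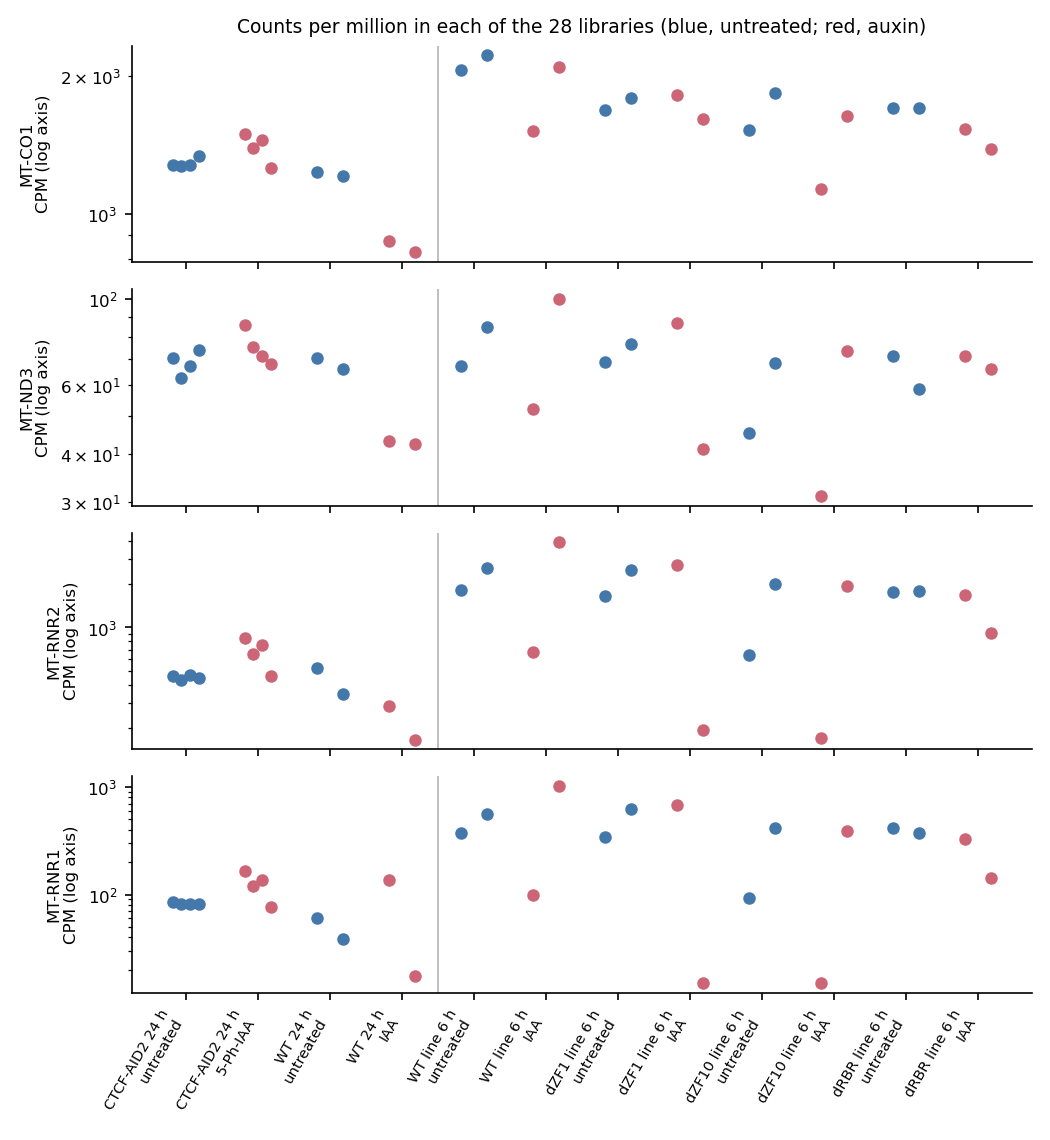
CPM of MT-CO1, MT-ND3, MT-RNR2 and MT-RNR1 in each of the 28 libraries (log axes, one point per library; blue, untreated; red, auxin; the vertical line divides the 24 h and 6 h sets). Both IAA-treated WT libraries of the 24 h set lie below the untreated ones for MT-CO1 and MT-ND3. MT-RNR1 falls to 15.04 and 15.2 CPM in an auxin-treated dZF1 library and an auxin-treated dZF10 library.

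The nuclear genes that serve the mitochondrial genome were read beside these values from fixed lists. The 80 nuclear genes listed for complexes I to V, subunits and an inhibitor of ATP synthase, were all tested. With 5-Ph-IAA, 5 of the 80 rose and 46 fell in CTCF-AID2 cells at 24 h (median log2 fold change -0.12). In that comparison 29.2% of all genes rose and 29.5% fell. Among the subunits that fell were ATP5G1 of ATP synthase by 0.58 (SE 0.05), NDUFB7 of complex I by 0.50 (SE 0.06) and SDHD of complex II by 0.37 (SE 0.03), with limma-voom adjusted p of 2.54e-07, 7.70e-06 and 3.42e-07. In the same cells the 13 mitochondrial mRNAs had a median of -0.04. In WT cells with IAA, 3 of the 80 rose and 14 fell, with a median of -0.10, where 9.35% of all genes rose and 9.57% fell. Averaged over the lines at 6 h, 17 rose and 8 fell, beside 25.1% and 26.4% of all genes, with a median of 0.05 where the mitochondrial mRNAs had -0.15.

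Of 29 tested genes for processing, stability and modification of mitochondrial RNA, 1 rose and 23 fell in CTCF-AID2 cells at 24 h, with a median of -0.23, beside 29.2% and 29.5% of all genes. DHX30, an RNA helicase of the mitochondrial RNA granules, fell by 1.21 on the log2 scale (SE 0.04, limma-voom adjusted p = 3.58e-12). REXO2, an oligoribonuclease, fell by 0.75 (SE 0.05, adjusted p = 6.36e-09). LRPPRC, which stabilizes mitochondrial mRNAs, fell by 0.42 (SE 0.03, adjusted p = 1.00e-08). In WT cells with IAA, 3 of the 29 rose and 6 fell (9.35% and 9.57% of all genes). Averaged over lines at 6 h, 5 rose and 14 fell (25.1% and 26.4% of all genes), LRPPRC among them by 0.29 (SE 0.03, adjusted p = 1.02e-05).

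Of 18 tested genes for transcription and upkeep of mitochondrial DNA, 1 rose and 12 fell in CTCF-AID2 cells at 24 h, beside 29.2% and 29.5% of all genes. MGME1, a nuclease of mitochondrial DNA replication, rose by 0.52 (SE 0.03, limma-voom adjusted p = 1.14e-08), and C10orf2, the helicase Twinkle, fell by 0.51 (SE 0.05, adjusted p = 3.05e-07). In WT cells with IAA, 3 of the 18 rose and 2 fell (9.35% and 9.57% of all genes). Averaged over lines at 6 h, 1 rose and 6 fell (25.1% and 26.4%). Whether these nuclear genes bear on the mitochondrial values was not tested.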

How the data were processed

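RNA-seq libraries of SEM cells (28 samples) were analysed from the deposited gene tables. Per the labels and methods, RSEM 1.3.1 gave the gene values on Gencode v19 from STAR 2.7.9a alignments to GRCh37, after trimming in Trim Galore 0.6.3. The deposited values are expected counts, TPM and FPKM per gene and library. FPKM values, as deposited, were read to check the files and are not reported. RSEM divides reads that match several genes among them, so values of mitochondrial genes and their nuclear copies depend on that division.

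Expected counts were rounded to whole numbers. The 92 spike-in rows, which held no counts, were left out. Genes with CPM above 1 in at least 1 library of a set were tested with limma-voom (limma 3.58.1, edgeR 4.0.16 TMM factors, R 4.3.3), 1 mean per group, separately for the 24 h and 6 h sets, with Benjamini-Hochberg adjustment over all genes tested and calls at an adjusted p of at most 0.05. Alternatives were edgeR's quasi-likelihood test, DESeq2 1.42.0, other scalings and filters, a replicate block, only the groups compared, leaving out libraries and adding nuclear copies. Scripts were tested on simulated data. Positions and sequences come from the GRCh37 reference. The members and gene lists were chosen with earlier results of these data known. All 13 mRNAs and both rRNAs are named, with the 5 tRNAs and the nuclear copies with the most counts, and the 3 tested genes with the smallest adjusted p, or some of them, from each list. Library totals of 25833955 to 60730749 counts set the counting precision, and intervals and limits from counts cover counting error only. One marker gene of the fixed lists is not reported here.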

Additional observations from a re-analysis of the deposited data

Results flagged for a closer look

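In 38 checks of groups of 4 libraries for a single distant value, 2 values stood apart, where chance gives about 1 in 20. MT-CO1 in untreated CTCF-AID2 replicate 4 read 1335 CPM, where the other 3 libraries of its group read 1274 to 1281 CPM. MTATP6P1, the nuclear copy of MT-ATP6, read 5.92 CPM in untreated CTCF-AID2 replicate 2, below the other 3 libraries of that group. The effects of treatment at 24 h differed between CTCF-AID2 and WT cells by a test of the difference itself for MT-RNR2 (1.48 on the log2 scale), MT-CO1 (0.60), MT-CO2 (0.61), MT-CO3 (0.65) and MT-ND3 (0.77), with a higher value in CTCF-AID2 cells for each. Agents, doses and transgenes differed between these lines too.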

How the results depend on the processing

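Over 204 pairs of gene and comparison and 3724 repeats under an alternative, 3633 kept their side of the threshold, 71 became called and 19 lost the call. Of the 19 called pairs, 7 lost the call in at least 1 alternative, 4 of them with all libraries kept. The median share of counts from the mitochondrial genome was 0.413%, 0.414% with nuclear copies and 0.455% with the 7SL and 7SK RNAs left out of the total, shifts smaller than the pooled SD within groups (0.160 percentage points) but, for the last, larger than the range within untreated CTCF-AID2 cells. One direction turned past the threshold: MT-RNR1 in WT cells at 24 h went from -0.02 to 1.48 on the log2 scale (limma-voom adjusted p = 0.0136) without IAA replicate 2, and to -1.45 without IAA replicate 1, so that gene rests on 2 libraries that disagree.

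The following counts of mitochondrial genes called differed by more than 1.5 times. With DESeq2 they were 1 in the WT line at 6 h, 3 for the average over lines, 4 for dZF1, 4 for dZF10 and 5 for dRBR against the WT line, each 0 with limma-voom, where DESeq2 called 14.6%, 50.2%, 0.856%, 0.216% and 0.23% of all genes. With only the groups compared they were 9 for WT cells at 24 h (5 in the full set), 1 in the WT line, 1 in dRBR cells at 6 h and 1 for dRBR against the WT line, where 19%, 25.5%, 19.6% and 0.0802% of all genes were called. In the same setting CTCF-AID2 cells at 24 h had 3 (2 in the full set, with MT-RNR1 added) and untreated CTCF-AID2 against WT cells 10 (7 in the full set). In these fits 59.1% and 73.8% of all genes were called. Without a filter on low counts they were 1 in dZF1 cells, 1 in dRBR cells and 1 for the average at 6 h, each a tRNA at low counts (11.9%, 2.9% and 23.5% of all genes). For that average, library sizes alone and the stricter filter gave 1 each (50.7% and 54.9%). Without the 2 libraries lowest in rRNA they were 1 in the WT line at 6 h and 1 for dRBR against the WT line (28.2% and 0.195%). The causes were not tested.

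Leaving out 1 library at a time gave 0 to 4 calls for CTCF-AID2 cells at 24 h (0 without treated replicate 1), 4 to 6 for WT cells, 5 to 6 for the difference of effects and 3 to 8 for untreated CTCF-AID2 against WT cells (3 without WT replicate 2). At 6 h it gave 0 to 2 for dZF1 cells, 0 to 4 for the average over lines, 0 to 1 for the differences among lines and 0 to 5 for dZF1 against the WT line, each at its highest without dZF1 with IAA, replicate 1. It gave 0 in the other 6 h comparisons.

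Replicate numbers were not taken to pair the samples, since not every same-numbered pair had a correlation of its deviations above 0.1: it was -0.17 to 0.06 in CTCF-AID2 cells at 24 h, 0.11 in WT cells, and 0.14, -0.07, 0.10 and 0.14 in the WT, dZF1, dZF10 and dRBR lines at 6 h. Libraries matched their own number best in WT cells at 24 h and in the WT, dZF10 and dRBR lines, not in dZF1 cells or in 3 of 4 CTCF-AID2 pairs. With the replicate number as a block, CTCF-AID2 cells at 24 h had 1 call (MT-RNR2) and the average at 6 h had 1 (MT-ND5, limma-voom adjusted p = 0.0343 against 0.051 without the block). With the block 55.3% and 51% of all genes were called in these comparisons.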
